A study of Mus musculus with 32 samples.

Results

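Glutathione S-transferases were followed in mouse lung as 10 listed genes of 6 classes, Gsta3 and Gsta4 (alpha), Gstm1, Gstm2 and Gstm5 (mu), Gstp1 (pi), Gstt1 and Gstt2 (theta), Gstz1 (zeta) and Gsto1 (omega). Each gene was represented by the probe set that carried its symbol alone and had the highest mean over all arrays, and all 10 passed the filter on dim probe sets, among 13345 genes tested. The level of a gene is the deposited signal of its probe set in linear units. Signals of different genes are not set against each other, because probe sets differ in brightness, so each gene is compared with itself across groups.

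The lungs came from C3H/HeN mice that were Gsr knockout (KO) or Gsr wild type (WT), with 1 Affymetrix array per mouse and 32 arrays in 10 groups. KO and WT lungs were taken at embryonic day 19 (E19, 4 arrays per genotype, no exposure). KO and WT newborns were kept with their dams in hyperoxia (100% oxygen) or in room air from postnatal day 0 to day 5, and their lungs were taken at the end of exposure (P5) or at postnatal day 56 (P56), with 3 arrays per group. The design asks how loss of Gsr, neonatal oxygen and age bear on lung transcripts. The labels do not state how the Gsr allele was made, the litter or the sex of an animal, and RNA came from a portion of each lung.

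Glutathione S-transferases join reduced glutathione to electrophiles such as lipid peroxidation products and activated xenobiotics, and the conjugates are then pumped out of the cell. Gsr encodes glutathione reductase, which returns oxidised glutathione to the reduced form that these enzymes use. In the lung, bronchiolar club cells and alveolar epithelium carry much of this metabolism. The alpha, mu and pi classes are mainly conjugating enzymes, the theta class acts on small halogenated compounds and hydroperoxides, the zeta enzyme works in tyrosine breakdown, and the omega enzyme transfers thiols and reduces dehydroascorbate through a cysteine in its active site.

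Start-site sequences are shown for 4 members, because Gsta3 and Gstt1 are among the 4 members called between genotypes at E19 and because the mu genes Gstm2 and Gstm5, both on chromosome 3, moved in opposite directions between P5 and P56. Each is the 250 bases before the annotated start, read 5′ to 3′ on the gene's strand from RefSeq on GRCm38.p6. Capitals mark matches, on either strand, to the core of the antioxidant response element, TGACNNNGC, or of the xenobiotic response element, GCGTG. The windows are chr1:21240335-21240584 on the plus strand for Gsta3, chr10:75797732-75797981 on the minus strand for Gstt1, chr3:107986421-107986670 on the minus strand for Gstm2 and chr3:107895604-107895853 on the plus strand for Gstm5.
Gsta3: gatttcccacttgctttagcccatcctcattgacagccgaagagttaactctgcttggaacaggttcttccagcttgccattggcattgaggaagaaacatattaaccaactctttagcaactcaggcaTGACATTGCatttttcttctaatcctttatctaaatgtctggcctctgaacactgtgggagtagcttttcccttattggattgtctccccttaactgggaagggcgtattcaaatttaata
Gstt1: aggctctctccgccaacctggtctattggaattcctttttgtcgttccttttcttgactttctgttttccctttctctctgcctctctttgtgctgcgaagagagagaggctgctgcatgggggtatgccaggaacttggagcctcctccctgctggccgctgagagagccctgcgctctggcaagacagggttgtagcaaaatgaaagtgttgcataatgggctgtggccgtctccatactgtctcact
Gstm2: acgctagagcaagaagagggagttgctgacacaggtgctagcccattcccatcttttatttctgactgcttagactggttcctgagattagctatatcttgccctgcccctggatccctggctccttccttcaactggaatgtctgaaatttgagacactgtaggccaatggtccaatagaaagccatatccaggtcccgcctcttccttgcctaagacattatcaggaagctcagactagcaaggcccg
Gstm5: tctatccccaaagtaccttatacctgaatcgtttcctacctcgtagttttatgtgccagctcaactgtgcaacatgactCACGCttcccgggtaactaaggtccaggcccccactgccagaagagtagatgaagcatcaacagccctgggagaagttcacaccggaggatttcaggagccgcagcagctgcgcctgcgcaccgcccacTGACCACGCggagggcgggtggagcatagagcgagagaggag
Gsta3 held 1 antioxidant core, TGACATTGC, whose first base lies 121 bases before the start. Gstm5 held 1 antioxidant core, TGACCACGC, 42 bases before the start, and 2 xenobiotic cores read on the other strand, 1 of which overlaps the antioxidant core. Neither motif was found in the windows of Gstt1 and Gstm2, which says only that these letters are not in these windows. Of 32851 promoter windows of the same length, 10.2% held the antioxidant core and 28.2% the xenobiotic core. Windows were found for 8 of the 10 members; the antioxidant core was present in 2 of them and the xenobiotic core in 3 (Gstm1, Gstm5 and Gstp1). Gsta4 and Gstt2 were not matched.

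Signals of the targeted gene, Gsr, lay between 138 and 257 on every KO array and between 498 and 1541 on every WT array, so no array went against its genotype label. The lung markers Scgb1a1, Sftpc and Ager were bright on all 32 arrays, with lowest signals of 15032, 12636 and 15943. Other tissue was present as well. Ahsg and Apoa1, transcripts made by liver cells, reached signals of 20769.8 and 27204 on WT E19 arrays against at most 497 and 504 on KO E19 arrays. On 2 arrays the 3′/5′ ratio of the control transcripts, a measure of how intact the RNA was, stood apart: log2 ratios were 4.27 on KO E19 replicate 1 and 2.81 on WT P56 hyperoxia replicate 2, and at most 1.55 on the other arrays. On both of these arrays Gsta4 and Gsto1 lay above the other arrays of their group, and Gstm1, Gstm2, Gstm5, Gstt2 and Gstz1 lay below them. Values without these arrays are given beside the results they move.

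**Figure D1:**
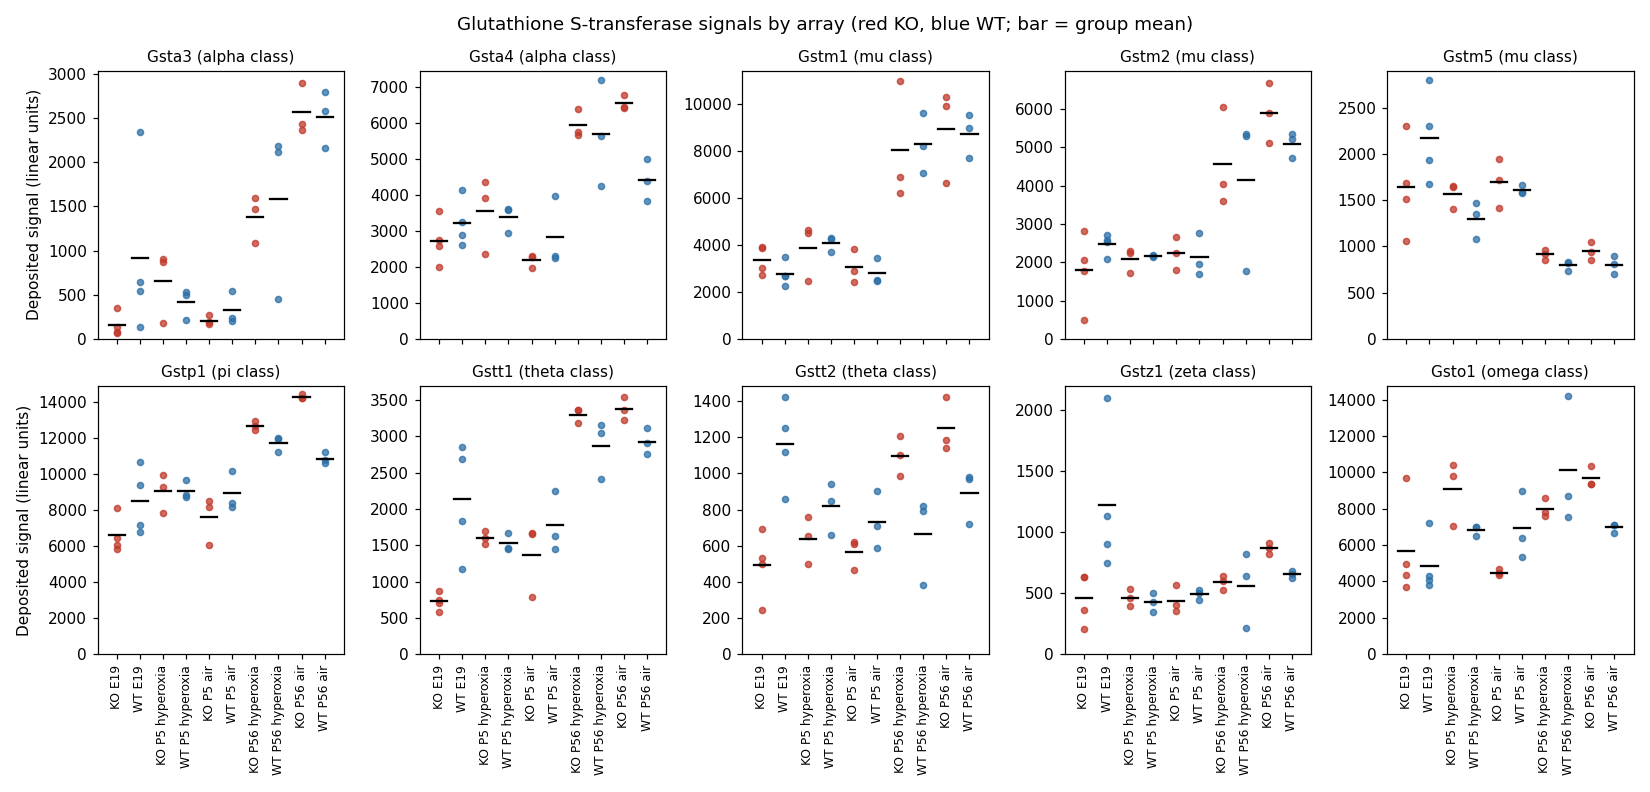
Deposited signal of each glutathione S-transferase (vertical axis, linear units from 0, own scale per gene) on all 32 arrays, by group along the horizontal axis, with KO in red, WT in blue and a bar at the group mean. Gstm5 is lower in the P56 groups than at E19 and P5, whereas the group means of Gsta3, Gstm1 and Gstp1 are highest in the 4 P56 groups.

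At E19, 4 of the 10 transferases were lower in KO than in WT lungs and none was higher: both theta genes, the zeta gene and the alpha gene Gsta3. In the same comparison 15.2% of the 13345 genes passed the test, 8.28% of all genes as lower. The median log2 difference of the 10 members, KO minus WT, was -0.56, against -0.05 over all genes. Liver transcripts were high in 3 of the 4 WT lungs, and their values are given below, after those of the members.

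Gstt1, the theta enzyme that acts on small halogenated compounds, had signals of 699.6, 872, 583 and 748 in KO E19 lungs and of 1170.4, 2687, 1839.8 and 2861 in WT E19 lungs. Every WT array lay above every KO array, with WT replicate 1 nearest to the KO range. The log2 difference was -1.46 ± 0.22 (SE; limma, adjusted p = 0.000105), a 2.75-fold lower signal in KO lungs. Gstt2, the other theta gene, had signals of 245, 691, 497 and 533 in KO lungs against 857, 1253, 1117 and 1424 in WT lungs. These groups did not overlap either, and the lowest value was that of KO replicate 1, the array with the highest 3′/5′ ratio. This gave a log2 difference of -1.26 ± 0.24 (SE; limma, adjusted p = 0.00104).

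Gstz1, which encodes maleylacetoacetate isomerase, had signals of 208, 629.8, 629.8 and 362 in KO E19 lungs and of 743, 901, 1129 and 2104 in WT E19 lungs. The groups did not overlap, WT replicate 4 was high and KO replicate 1 low. The difference on the log2 scale was -1.37 ± 0.32 (SE; limma, adjusted p = 0.00436). Gsta3, the mouse alpha enzyme known for conjugating the aflatoxin epoxide, had signals of 81.7, 347, 134 and 69.4 in KO lungs against 139, 546, 649 and 2337 in WT lungs. WT replicate 1 lay inside the KO range and WT replicate 4 far above all other E19 arrays. The log2 difference came to -1.98 ± 0.59 (SE; limma, adjusted p = 0.0241), the widest error among the members.

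The other 6 members did not pass the test at E19. Gstp1, the pi enzyme, had signals of 6076, 5844, 8126 and 6449.7 in KO lungs against 6791, 9409, 7202 and 10659 in WT lungs. The groups overlapped, and the log2 difference was -0.35 ± 0.13 (SE; limma, adjusted p = 0.0682). Gstm5 had a log2 difference of -0.43 ± 0.17 (SE; limma, adjusted p = 0.0932), and -0.24 without KO replicate 1. Gsta4, which conjugates hydroxynonenal, stood at -0.25 ± 0.20 (SE; limma, adjusted p = 0.415), and at -0.38 without that array. Gstm2 had signals of 494, 2829, 2056 and 1773 in KO lungs against 2699, 2571, 2518 and 2097 in WT lungs. The low KO value was that of replicate 1. Its log2 difference was -0.70 ± 0.35 (SE; limma, adjusted p = 0.173) with that array and -0.17 without it. The log2 differences of Gstm1 and Gsto1 were 0.28 ± 0.21 and 0.18 ± 0.23 (SE), with intervals (95%) of -0.15 to 0.71 and -0.30 to 0.65. Gsto1 turned to -0.11 without KO replicate 1, to -0.13 with the 3′/5′ ratio as a covariate and to -0.16 with the Ahsg and Apoa1 covariate.

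By an exact permutation test of the array labels (two-sided, 4 KO against 4 WT arrays), the p was 0.0286 for Gstt1, Gstt2 and Gstz1, the smallest this design can give, and 0.0571 for Gsta3. After Benjamini-Hochberg adjustment over the 10 members these exact permutation values were 0.0952 for the 3 genes and 0.143 for Gsta3. Of all genes, 5.63% had E19 groups that did not overlap with KO lower, against 3 of the 10 members. When only the E19 arrays were fitted, 0 members passed, with adjusted p of 0.088 for Gstt1 and 0.146 to 0.266 for the other 3, and only 40 of all genes were called.

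**Figure D2:**
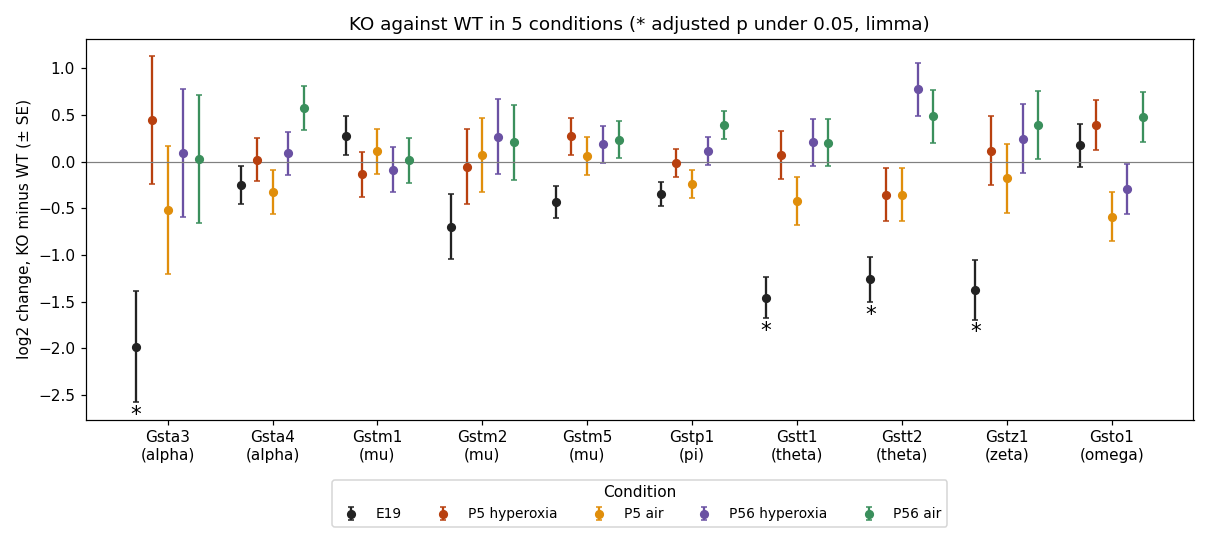
Log2 difference in signal, KO minus WT, with its standard error (vertical axis) for each glutathione S-transferase at E19, P5 hyperoxia, P5 air, P56 hyperoxia and P56 air (colours). Asterisks mark adjusted p under 0.05 in limma; they stand at E19 for Gsta3, Gstt1, Gstt2 and Gstz1, at log2 differences of -1.98, -1.46, -1.26 and -1.37, and nowhere else.

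Liver cells hold large amounts of several transferases, so the E19 differences were set beside the liver transcripts of each array. Ahsg had signals of 57.7, 9.35, 497 and 414 in KO E19 lungs and of 141, 17071, 8589.6 and 20769.8 in WT E19 lungs. Apoa1 had signals of 343, 6.96, 504 and 347 in KO lungs against 137, 26112, 13191 and 27204 in WT lungs. WT replicates 2, 3 and 4 were thus high in both transcripts, and WT replicate 1 lay inside the KO range. All 16 genes of a list of liver markers were called lower in KO lungs, with list levels (mean log2 signal, centred on all arrays) of -1.75 to 0.88 on KO arrays and of -0.51, 5.98, 5.00 and 6.21 on WT arrays 1 to 4. Of 9 measured erythroid markers 8 were called lower, with list levels of -0.57 to 0.04 on KO arrays and of -0.49 to 3.41 on WT arrays; the part of these cells in the member values was not tested. Of lung cell markers, 5 of 7 for alveolar type 2 cells, 3 of 8 for type 1 cells and 5 of 10 for club and secretory cells were called higher in KO lungs, and 1 club-cell gene lower. Of endothelial and striated-muscle markers 3 of 8 and 3 of 10 were higher. Of squamous-epithelium markers 4 of 7 and of neutrophil markers 3 of 7 were lower, with squamous list levels of -0.87 to -0.70 on KO and -0.78 to 2.88 on WT arrays, and neutrophil levels of -0.35 to 0.12 on KO and -0.89 to 3.01 on WT arrays. The part of these cells was not tested either.

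The members differed in how far they followed this split. With the mean log2 level of Ahsg and Apoa1 as a covariate, the log2 difference of Gstt1 was -1.24 (adjusted p = 0.0426) and it alone kept its call. Gstt2, Gstz1 and Gsta3 were then at -1.14 (adjusted p = 0.105), -1.03 (adjusted p = 0.254) and -1.40 (adjusted p = 0.41). Only 119 of all genes were called in that fit. On WT replicate 1, the WT lung with liver transcripts in the KO range, Gstt1, Gstt2 and Gstz1 had signals of 1170.4, 857 and 743, above all 4 KO arrays, whereas Gsta3, at 139, lay within them. With WT replicate 1 as the only WT array, the log2 differences were -0.68 (adjusted p = 0.42) for Gstt1, -0.86 (adjusted p = 0.496) for Gstt2, -0.79 (adjusted p = 0.62) for Gstz1 and -0.07 (adjusted p = 0.981) for Gsta3. No member passed there, in a fit that takes the spread of the lone WT array from the other groups and calls 61 genes in all. In bulk tissue, fewer cells of a type and less RNA per cell cannot be told apart.

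**Figure D3:**
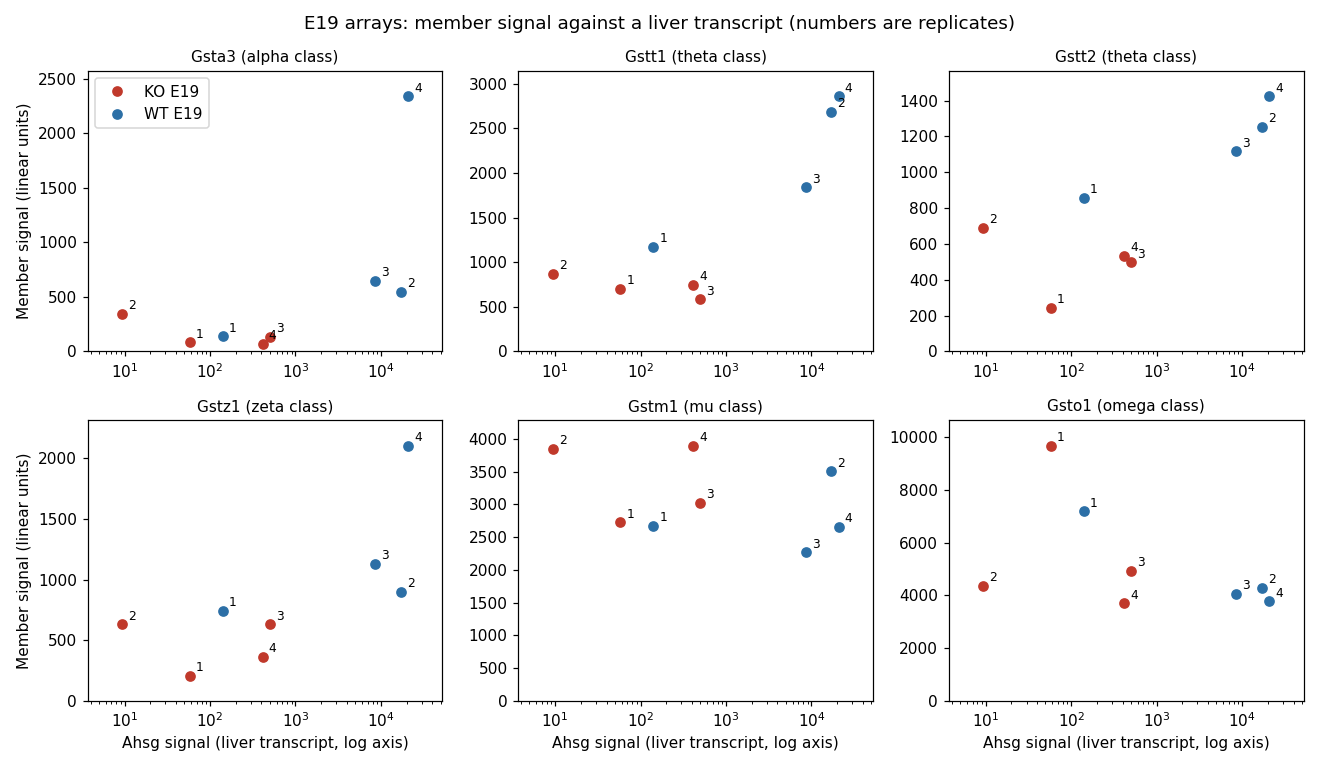
Signal of 6 glutathione S-transferases (vertical axes, linear units from 0) against the signal of the liver transcript Ahsg (horizontal axis, log scale) on the 8 E19 arrays, with KO in red, WT in blue and replicate numbers beside the points. For Gsta3 the WT array with low Ahsg (replicate 1, Gsta3 at 139) lies among the KO arrays, whereas for Gstt1, Gstt2 and Gstz1 it lies above them, at 1170.4, 857 and 743; Gstm1 and Gsto1 overlap between genotypes.

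Gsta3 lost its call most easily when single arrays were left out. It missed the threshold without KO replicate 1 (-1.80, adjusted p = 0.0628), KO replicate 4 (-1.74, adjusted p = 0.0668), WT replicate 3 (-1.95, adjusted p = 0.0549) or WT replicate 4 (-1.34, adjusted p = 0.141), and with the 3′/5′ ratio as a covariate (-1.53, adjusted p = 0.0779). A second Gsta3 probe set gave -1.25 (adjusted p = 0.0429). Gstt1, Gstt2 and Gstz1 stayed past the threshold when any 1 E19 array was left out. Other members gained a call in some fits. Gstp1 passed without KO replicate 3 (-0.45, adjusted p = 0.0191), WT replicate 1 (-0.45, adjusted p = 0.0205) or WT replicate 3 (-0.42, adjusted p = 0.0483), and under quantile normalization (-0.45, adjusted p = 0.0134). Gstm5 passed without KO replicate 3 (-0.61, adjusted p = 0.013) and Gstm2 without KO replicate 2 (-0.99, adjusted p = 0.0442). Without KO replicate 1 the log2 differences of Gstt1, Gstt2 and Gstz1 were -1.45, -0.98 and -1.06.

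Genes around the transferases were taken from lists of the glutathione pathway. Of 12 measured other family members 3 were lower in KO lungs at E19 and none higher: Gstp3 at -2.09 (limma, adjusted p = 0.00318), Gstm7 at -0.75 (limma, adjusted p = 0.036) and the microsomal Mgst2 at -0.80 (limma, adjusted p = 0.0395). Of 17 genes of glutathione synthesis and recycling 5 were lower, Gsr itself at -1.90 (limma, adjusted p = 2.15e-08), the transsulfuration enzymes Cbs (-1.47) and Cth (-1.17), Ggt6 (-0.85) and the regulatory ligase subunit Gclm (-0.59), and 1 was higher, Ggct (0.70); Cth and Gclm are named after their values had been seen. All 3 measured partners of Gstz1 in tyrosine breakdown were lower: Hpd at -3.52 (limma, adjusted p = 0.000891), Hgd at -2.42 (limma, adjusted p = 0.00776) and Fah at -1.45 (limma, adjusted p = 0.00506). Of 7 genes for conjugate export Abcc2, a pump of the bile canaliculus in liver, was lower at -2.38 (limma, adjusted p = 0.00125) and Abcc4 higher at 0.82 (limma, adjusted p = 0.0085). Of 7 NRF2-related genes Osgin1 was lower (-1.65), of 6 glutathione peroxidases Gpx4 was lower (-0.72), and of 4 genes of the aryl hydrocarbon receptor list Ahr was higher (0.62). Neither glyoxalase gene passed. The liver transcripts described above moved with these genes too, and their part was not tested for them.

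Between P5 and P56 in air more members passed the test than in any comparison of genotypes. In KO lungs all 10 members passed the test, 9 as higher and Gstm5 as lower at P56, where 29.6% of all genes passed, 15.2% as higher and 14.3% as lower. In WT lungs 6 of 10 passed, 5 as higher and Gstm5 as lower, where 22.9% of all genes passed, 12.1% as higher and 10.8% as lower. The median log2 difference of the members, P56 minus P5, was 1.24 in KO and 0.53 in WT lungs, against 0.00 over all genes in either genotype.

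Gsta3 had the largest log2 change of the members in both genotypes. In KO lungs its signals were 2437, 2895 and 2365 at P56 against 166, 268 and 186 at P5, a log2 difference of 3.50 ± 0.69 (SE; limma, adjusted p = 0.000337). In WT lungs they were 2799, 2579 and 2164 at P56 against 242, 205 and 538 at P5, a log2 difference of 2.95 ± 0.69 (SE; limma, adjusted p = 0.0023). No P5 value reached a P56 value in either genotype, and the rise was 11.3-fold in KO and 7.72-fold in WT lungs.

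The other alpha gene, Gsta4, had signals of 6442, 6788 and 6467 at P56 against 2319, 2289 and 1979.5 at P5 in KO lungs. In WT lungs they were 4384, 3849 and 5019 at P56 against 2321, 2253 and 3968 at P5. WT P5 replicate 3 lay within the P56 range, so the ages overlapped in WT and not in KO lungs. The log2 differences were 1.57 ± 0.23 (SE; limma, adjusted p = 1.15e-05) in KO and 0.67 ± 0.23 (SE; limma, adjusted p = 0.0371) in WT lungs.

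Of the mu class, Gstm1 and Gstm2 rose and Gstm5 fell in both genotypes. Gstm1 had signals of 6642, 10302 and 9907 at P56 against 3808, 2894 and 2427 at P5 in KO lungs, and of 8994, 7705 and 9521 against 2487, 2465 and 3443 at the same ages in WT lungs. The log2 differences were 1.55 ± 0.24 (SE; limma, adjusted p = 2.25e-05) in KO and 1.65 ± 0.24 (SE; limma, adjusted p = 1.16e-05) in WT lungs. All P56 values lay above all P5 values, as for 27.3% of all genes in KO and 27.1% in WT lungs. Gstm2 had signals of 5112, 6689.8 and 5900.0 at P56 against 2666, 2241 and 1787 at P5 in KO lungs, and of 5209, 4720.3 and 5342 at P56 against 1952, 1702 and 2763 at P5 in WT lungs. The ages did not overlap in either genotype, with log2 differences of 1.40 ± 0.40 (SE; limma, adjusted p = 0.00911) in KO and 1.27 ± 0.40 (SE; limma, adjusted p = 0.0216) in WT lungs.

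Gstm5, which lies on chromosome 3 with Gstm1 and Gstm2, had signals of 1053, 858 and 941 at P56 against 1414, 1944 and 1721 at P5 in KO lungs. In WT lungs they were 814, 702 and 896 at P56 against 1591, 1576 and 1659 at P5. Every P56 value lay below every P5 value, as for 25.8% of all genes in KO and 27.1% in WT lungs, and the log2 differences were -0.81 ± 0.20 (SE; limma, adjusted p = 0.00301) in KO and -0.98 ± 0.20 (SE; limma, adjusted p = 0.000629) in WT lungs. Across the 10 group means of log2 signal, Gstm1 and Gstm5 had a Pearson r of -0.97 and Gsta3 and Gstm2 one of 0.96, given as a description of groups that share age.

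The pi, theta, zeta and omega genes rose in KO lungs, whereas in WT lungs Gstt1 alone among them passed. Gstp1 had signals of 14231, 14470.3 and 14215 at P56 against 6065, 8527 and 8195 at P5 in KO lungs, a log2 difference of 0.93 ± 0.15 (SE; limma, adjusted p = 3.4e-05). In WT lungs they were 11225, 10777 and 10597 at P56 against 8196, 8397 and 10189 at P5, a log2 difference of 0.29 ± 0.15 (SE; limma, adjusted p = 0.174). The ages did not overlap in either genotype. Gstt1 had signals of 3225, 3367 and 3547 at P56 against 788, 1653 and 1668 at P5 in KO lungs, and of 2912, 2761 and 3115 at P56 against 1634, 1448 and 2245 at P5 in WT lungs. All P56 values lay above the P5 values, and Gstt1 rose by 1.36 ± 0.25 (SE; limma, adjusted p = 0.000193) on the log2 scale in KO and by 0.74 ± 0.25 (SE; limma, adjusted p = 0.036) in WT lungs.

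Gsto1, the omega gene, had signals of 10354, 9371 and 9369 at P56 against 4443, 4676 and 4329 at P5 in KO lungs. In WT lungs they were 7117, 7090.5 and 6684 at P56 against 8974, 5351 and 6405 at P5. The ages were far apart in KO lungs and overlapped in WT lungs, with log2 differences of 1.11 ± 0.27 (SE; limma, adjusted p = 0.00233) in KO and 0.04 ± 0.27 (SE; limma, adjusted p = 0.937) in WT lungs.

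Gstt2 had signals of 1421, 1139 and 1186 at P56 against 619, 607 and 465 at P5 in KO lungs, and of 967, 978 and 721 at P56 against 584, 709.7 and 902 at P5 in WT lungs. The ages overlapped in WT and not in KO lungs, and the log2 differences were 1.12 ± 0.28 (SE; limma, adjusted p = 0.00357) in KO and 0.28 ± 0.28 (SE; limma, adjusted p = 0.534) in WT lungs. Gstz1 had signals of 867, 823 and 909 at P56 against 566, 399.7 and 351 at P5 in KO lungs, and of 678, 655 and 627 at P56 against 502, 442 and 529.6 at P5 in WT lungs. The ages did not overlap in either genotype. It stood at 0.97 ± 0.37 (SE; limma, adjusted p = 0.0491) in KO lungs and at 0.40 ± 0.37 (SE; limma, adjusted p = 0.495) in WT lungs. The call in KO lungs was lost in 12 of 21 alternative fits. Among these were the fits with KO P5 air replicate 2 or 3, or any 1 KO P56 air array, left out.

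**Figure D4:**
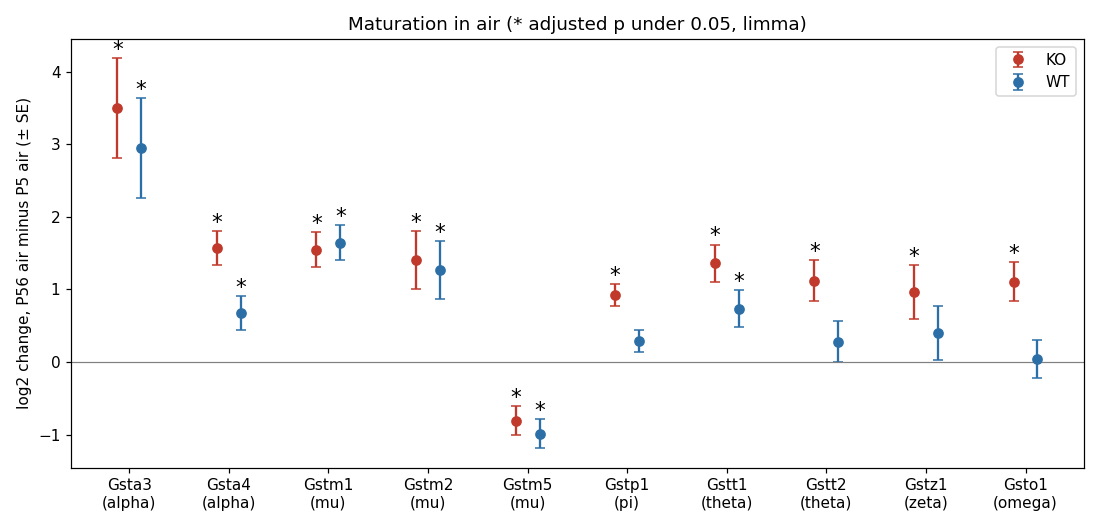
Log2 difference in signal between P56 and P5 in air, P56 minus P5, with its standard error (vertical axis), for each glutathione S-transferase in KO (red) and WT (blue) lungs; asterisks mark adjusted p under 0.05 in limma. Gstm5 lies below 0 in both genotypes, at -0.81 in KO and -0.98 in WT lungs, and the other 9 genes lie above 0.

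Whether the change with age differed between genotypes was tested as a term of its own, added after the values had been seen. The term is the P56 minus P5 difference of KO lungs less that of WT lungs. No member passed, and no gene of the 13345 did (0%); 4 members had an unadjusted p under 0.05, Gsta4 (0.90 ± 0.33 SE, adjusted p = 0.308), Gsto1 (1.06 ± 0.38 SE, adjusted p = 0.293), Gstp1 (0.64 ± 0.21 SE, adjusted p = 0.262) and Gstt2 (0.84 ± 0.40 SE, adjusted p = 0.426). Of all genes, 1531 had an unadjusted p under 0.05 in this term. Fitted on the compared groups alone, Gsto1 passed at 1.06 (adjusted p = 0.0296), where 3.48% of all genes were called. With arrays weighted by their fit, Gsta4, Gstp1, Gstt2 and Gsto1 passed, where 19.4% of all genes were called.

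WT lungs in air at P5 still held liver transcripts, with Ahsg signals of 33.6, 50.7 and 3.23 at P56 against 3109, 1174 and 617 at P5, and 13 of 16 liver markers fell in WT lungs. With the Ahsg and Apoa1 level as a covariate, 3 members passed in WT lungs, where 11.9% of all genes were called. Gsta4 stood at 0.22 (adjusted p = 0.716), Gstm2 at 1.08 (adjusted p = 0.209) and Gstt1 at 0.96 (adjusted p = 0.0568). The WT count also fell to 3 when WT P5 air replicate 1 or 2, or WT P56 air replicate 1 or 3, was left out, with Gsta4, Gstm2 and Gstt1 each missing the threshold. In KO lungs no liver marker passed. Club-cell and secretory markers rose in 8 of 10 measured genes in KO lungs and in 4 of 10 in WT lungs, where 1 fell, and ciliated-cell markers in 7 and 5 of 8. Club-cell list levels were at least 1.11 at P56 and at most -0.32 at P5 in KO lungs, and -0.54 to 1.40 at P56 and -1.26 to -0.29 at P5 in WT lungs; their part in the member changes was not tested.

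Further family members rose with age. Of 12 measured, 5 rose in KO lungs, with Mgst2 at 2.19 (limma, adjusted p = 4.82e-06), Mgst1 at 1.13 (limma, adjusted p = 1.19e-05), Gsta2 at 2.19 (limma, adjusted p = 0.000172) and Gstt3 at 1.17 (limma, adjusted p = 0.00298) among them, and 3 rose in WT lungs, Gstt3 at 1.44 (limma, adjusted p = 0.000554), Mgst2 at 1.48 (limma, adjusted p = 0.000726) and Gsta2 at 1.15 (limma, adjusted p = 0.0398). None fell. Of 17 genes of glutathione synthesis and recycling 8 rose in KO lungs, among them Ggct (0.95), Ggt6 (1.33), the catalytic ligase subunit Gclc (1.32) and the peptidase Anpep. In WT lungs 4 rose, Dpep1 (1.57), Slc3a2 (0.98), Gsr (0.76) and Ggct (0.73).

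Among 6 glutathione peroxidases 4 rose and 1 fell in KO lungs and 2 rose and 2 fell in WT lungs. Gpx2 rose by 4.67 (limma, adjusted p = 3.81e-05) on the log2 scale in KO and by 2.85 (limma, adjusted p = 0.00699) in WT lungs, and Gpx7 fell, with log2 differences of -0.96 in KO and -1.20 in WT lungs. Of 7 conjugate exporters Abcc3 rose in both genotypes (1.76 in KO, 1.28 in WT), as did Abcc4, and Abcg2 fell in both. Abcc1 rose in KO lungs. The NRF2-related genes Nqo1 (1.22 in limma, adjusted p = 0.000259), Srxn1 (1.14) and Osgin1 (1.25) rose in KO lungs, and none of the 7 passed in WT lungs. Of the aryl hydrocarbon receptor list Cyp1b1 rose in both genotypes (0.86 in KO, 0.90 in WT) and Cyp1a1 passed in KO lungs (1.03). No gene passed the test of a difference between genotypes in this change with age. Hagh, 1 of 2 glyoxalase genes, rose in KO lungs (0.56), and no gene of tyrosine breakdown passed in either genotype.

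Between E19 and P5 in air 1 member passed the test in each genotype. In KO lungs Gstt1 rose, with signals of 788, 1653 and 1668 at P5 against 699.6, 872, 583 and 748 at E19. KO P5 replicate 1 lay inside the E19 range and the other P5 arrays above it. The log2 difference was 0.83 ± 0.24 (SE; limma, adjusted p = 0.0496), and it was the single member called, where 3.45% of all genes were, 2.21% as higher. The call was lost without KO E19 replicate 1, 3 or 4 or KO P5 air replicate 2 or 3.

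In WT lungs Gstz1 fell, with signals of 502, 442 and 529.6 at P5 against 743, 901, 1129 and 2104 at E19. All P5 values lay below all E19 values, as for 13.5% of all genes. This gave a log2 difference of -1.16 ± 0.35 (SE; limma, adjusted p = 0.0239), again the single member called, where 14.6% of all genes were, 6.23% as lower. With the Ahsg and Apoa1 level as a covariate it was -1.04 (adjusted p = 0.0576). The genotype-by-birth term, the P5 minus E19 difference of KO lungs less that of WT lungs, was called for no member in limma and for 0.187% of genes. In this term 1554 of the 13345 genes had an unadjusted p under 0.05. The 4 members with an unadjusted p under 0.05 were Gstt1 at 1.04 ± 0.34 (SE; limma, adjusted p = 0.247), Gstz1 at 1.20 ± 0.49 (SE; limma, adjusted p = 0.348), Gstt2 at 0.91 ± 0.37 (SE; limma, adjusted p = 0.353) and Gsto1 at -0.77 ± 0.35 (SE; limma, adjusted p = 0.397).

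Neonatal hyperoxia changed no member past the threshold at either age or in either genotype. In limma the counts of genes called were few as well, with 0.345% of genes in KO and 0.00749% in WT lungs at P5, and 0% in both genotypes at P56. At an unadjusted p under 0.05, 2 members stood in KO and 1 in WT lungs at P5, and 0 in both genotypes at P56. Among all 13345 genes these counts were 779 in KO and 409 in WT lungs at P5, and 360 and 681 at P56. With arrays weighted by their fit, 4 members passed in KO lungs at P5 (Gsta3, Gsta4, Gstm1 and Gsto1) and 3 in WT lungs at P5, where 20.2% of all genes in KO and 24.2% in WT lungs were called.

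Gsto1 came nearest to a call. At P5 its signals were 7024, 10419 and 9805 in KO hyperoxia lungs against 4443, 4676 and 4329 in KO air lungs, and every hyperoxia value lay above every air value, as for 7.22% of all genes. The difference on the log2 scale was 0.99 ± 0.27 (SE; limma, adjusted p = 0.16), and a second Gsto1 probe set gave 1.24 (adjusted p = 0.0567). In WT lungs the signals were 7011, 6989 and 6499.8 in hyperoxia against 8974, 5351 and 6405 in air. These groups overlapped, and the log2 difference was 0.02 ± 0.27 (SE; limma, adjusted p = 1). The genotype-by-oxygen term was 0.98 ± 0.38 (SE; limma, adjusted p = 1), with an interval (95%) of 0.21 to 1.75; 0.15% of genes were called in it.

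The same KO hyperoxia arrays held transcripts of other tissues. Of 7 squamous-epithelium markers 4 and of 10 striated-muscle markers 5 were called higher in KO hyperoxia than in KO air lungs at P5. Squamous list levels were 2.15 to 2.78 in hyperoxia and -0.86 to -0.55 in air, and striated-muscle levels 1.70 to 2.12 in hyperoxia and -0.72 to 0.57 in air. List levels of sex-linked genes were -1.30 to 0.50 in hyperoxia and 0.70 to 1.26 in air. That list named Ddx3y, Eif2s3y, Kdm5d, Uty and Xist, and 4 of them were measured. Its level averages the measured genes with the same sign. The part of other tissue and sex in the Gsto1 difference was not tested.

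The alpha genes were more spread in the same comparison. Gsta4 had signals of 2355, 4377 and 3925 in KO hyperoxia lungs against 2319, 2289 and 1979.5 in KO air lungs, a log2 difference of 0.64 ± 0.23 (SE; limma, adjusted p = 0.524). The lowest hyperoxia value lay just above the air values. Gsta3 had signals of 181, 867 and 908 in KO hyperoxia against 166, 268 and 186 in KO air lungs, with replicate 1 of the hyperoxia group inside the air range and the other 2 above it. Its log2 difference was 1.28 ± 0.69 (SE; limma, adjusted p = 0.936). In WT lungs Gstm1 had the largest log2 difference of the 10, 0.56 ± 0.24 (SE; limma, adjusted p = 1), with signals of 4258, 4283 and 3715 in hyperoxia against 2487, 2465 and 3443 in air. These groups did not overlap, as for 7.29% of all genes with hyperoxia higher. Liver-marker list levels in WT lungs at P5 were -0.31 to 0.85 in hyperoxia and 1.75 to 3.89 in air. With the Ahsg and Apoa1 level as a covariate, 0 members were called in this WT comparison.

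At P56, long after the exposure, all 10 members had lower mean log2 signals in KO hyperoxia than in KO air lungs, with log2 differences from -0.89 (Gsta3) to -0.03 (Gstt1) and a median of -0.18, against 0.03 over all genes. The sign was the same under quantile normalization and median centring. None passed the test. Groups did not overlap for Gsta3, Gsta4, Gstp1, Gstz1 and Gsto1, and 6.15% of all genes had hyperoxia wholly below air in this comparison. Marker lists stood apart between the same KO arrays. List levels of the 4 measured genes of the sex-linked list named above were -1.47 to -1.26 in hyperoxia and -0.83 to 1.59 in air. In WT lungs at P56 they were -1.50 to -1.12 in hyperoxia and -0.48 to 1.09 in air. Striated-muscle levels in KO lungs were -1.19 to -0.93 in hyperoxia and -0.10 to 0.32 in air. The log2 3′/5′ ratio was 0.54, 1.23 and 1.55 on KO hyperoxia replicates 1, 2 and 3, and 0.68 to 1.05 on KO air arrays. The part of sex and other tissue in the member differences was not tested. Gsta3 had signals of 1596, 1466 and 1091 in KO hyperoxia against 2437, 2895 and 2365 in KO air lungs, a log2 difference of -0.89 ± 0.69 (SE; limma, adjusted p = 1). Gstz1 had signals of 637, 599 and 527 in KO hyperoxia against 867, 823 and 909 in KO air lungs, a log2 difference of -0.54 ± 0.37 (SE; limma, adjusted p = 1).

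In WT lungs at P56, replicate 2 of the hyperoxia group, the array with the second-highest 3′/5′ ratio, stood apart from the others. Gsta3 had signals of 2185, 446 and 2118 in WT hyperoxia against 2799, 2579 and 2164 in WT air lungs. Gsto1 had signals of 7533, 14217 and 8693 in WT hyperoxia against 7117, 7090.5 and 6684 in WT air lungs. The second value is the low one for Gsta3 and the high one for Gsto1. On this array 7 members lay below the other 2 arrays of their group, 2 above and 1 between, and on KO E19 replicate 1, 5 lay below, 2 above and 3 between. Gstm2 was 1.57 lower on the log2 scale on this WT array than the mean of the other arrays of its group, and 2.08 lower on KO E19 replicate 1. The hyperoxia minus air difference in WT lungs was positive for 3 of 10 members with this array, and for 8 of 10 without the 2 arrays of high ratio.

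**Figure D5:**
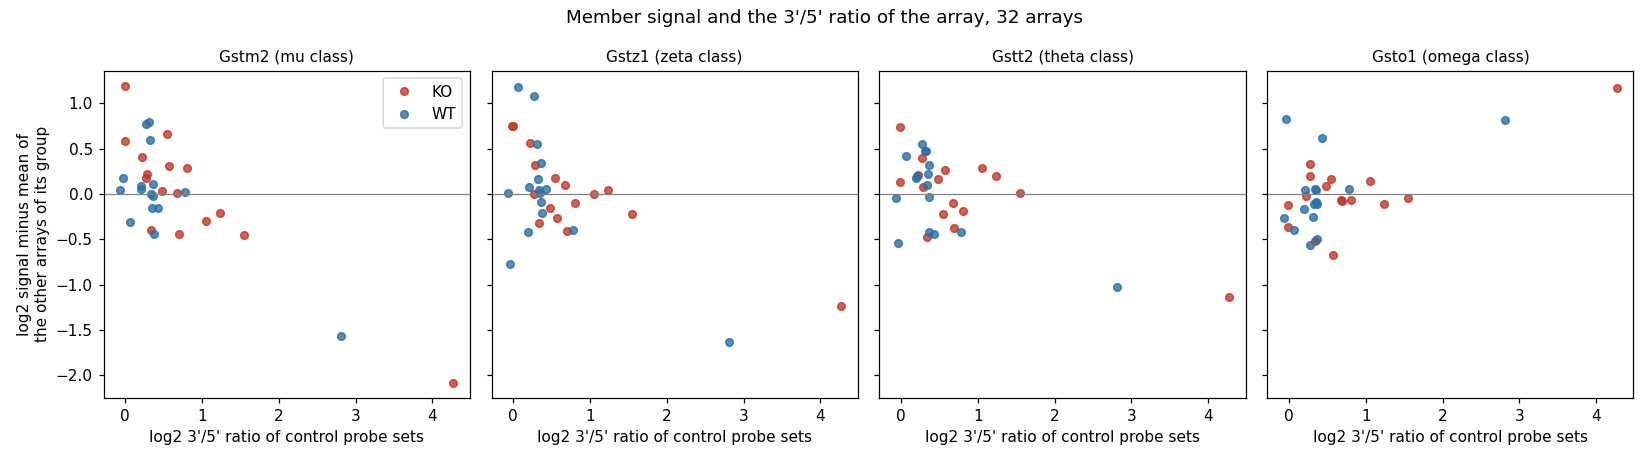
Log2 signal of an array minus the mean of the other arrays of its group (vertical axis) for 4 glutathione S-transferases, against the log2 3′/5′ ratio of the control transcripts of that array (horizontal axis), 32 arrays, KO in red and WT in blue. The arrays at 4.27 (KO E19 replicate 1) and 2.81 (WT P56 hyperoxia replicate 2) are low for Gstm2, Gstz1 and Gstt2 and high for Gsto1.

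KO and WT lungs were also compared after birth. At P5 no member was called in limma in air (0.0375% of genes called, 1 member at an unadjusted p under 0.05) or in hyperoxia (0.187% of genes, 0 members). Among all 13345 genes, 743 in air and 403 in hyperoxia had an unadjusted p under 0.05. Gsto1 in air was the member nearest a call, with signals of 4443, 4676 and 4329 in KO against 8974, 5351 and 6405 in WT lungs. All KO values lay below all WT values, as for 8.41% of all genes, and the log2 difference was -0.59 ± 0.27 (SE; limma, adjusted p = 0.846). For Gstt1, called at E19, the log2 differences at P5 were 0.07 ± 0.25 in hyperoxia and -0.42 ± 0.25 in air (SE), with intervals (95%) of -0.45 to 0.59 and -0.94 to 0.10. Liver-marker list levels also stood apart at P5, at -1.68 to -0.21 in KO and 1.75 to 3.89 in WT air lungs. In hyperoxia they were -2.04 to -1.82 in KO and -0.31 to 0.85 in WT lungs. With the Ahsg and Apoa1 level as a covariate, 0 members were called between genotypes at P5.

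At P56 in air all 10 members had a higher mean log2 signal in KO than in WT lungs, with a median log2 difference of 0.31 against 0.02 over all genes, and none passed the test. The call rate was low for all genes, at 0.0749%. An unadjusted p under 0.05 was found for 2 members and for 1580 of the 13345 genes. Under quantile normalization 9 and under median centring 8 of the 10 were positive, with Gstm1 turned in both and Gsta3 in the second. Other measures stood apart between the same arrays. All 10 club and secretory markers had a higher mean log2 signal in KO lungs (median difference 0.52), as had 6 of 7 for alveolar type 2 cells (0.34), and the level of Scgb1a1, Sftpc and Ager together was 0.25 to 0.49 in KO and -0.27 to 0.08 in WT lungs. The log2 3′/5′ ratio was 0.68 to 1.05 on KO and 0.21 to 0.36 on WT arrays; with that ratio as a covariate all 10 members stayed positive, with a median of 0.37 and no call. The part of the cell types in the member differences was not tested.

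Groups did not overlap at P56 in air for Gsta4, Gstp1, Gstt1, Gstt2, Gstz1 and Gsto1, all with KO higher; 17.9% of all genes had KO wholly above WT in this comparison.

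Gsta4 had signals of 6442, 6788 and 6467 in KO against 4384, 3849 and 5019 in WT lungs, a log2 difference of 0.58 ± 0.23 (SE; limma, adjusted p = 0.308). Gstp1 had signals of 14231, 14470.3 and 14215 in KO against 11225, 10777 and 10597 in WT lungs, a log2 difference of 0.40 ± 0.15 (SE; limma, adjusted p = 0.273). Within each genotype the Gstp1 arrays lay close together. Gsto1 had a log2 difference of 0.48 ± 0.27 (SE; limma, adjusted p = 0.503), with a second probe set at 0.11, and Gstz1 one of 0.39 ± 0.37 (SE; limma, adjusted p = 0.758). Fitted on the 6 P56 air arrays alone, 4 members passed: Gsta4 (adjusted p = 0.0208), Gstp1 (0.021), Gstz1 (0.045) and Gsto1 (0.0195), among 1206 of all genes.

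At P56 after hyperoxia no member was called either (0.0375% of genes called). An unadjusted p under 0.05 was found for 1 member and for 1164 of the 13345 genes. With arrays weighted by their fit 4 members passed after hyperoxia, 2 as higher and 2 as lower, and 3 in air, where 35.5% and 20.1% of all genes were called. Groups did not overlap for Gstm5, Gstp1, Gstt1 and Gstt2, with KO higher, as for 9.37% of all genes. Gstt2 had signals of 988, 1204 and 1103 in KO against 818, 382 and 791 in WT lungs, where the low value is again that of WT replicate 2. Its log2 difference was 0.77 ± 0.28 (SE; limma, adjusted p = 0.454), and 0.43 without the 2 arrays of high 3′/5′ ratio. Of the 10 members 8 had a positive KO minus WT difference with those arrays and 5 without them, with medians of 0.15 and 0.03. Gsta3, Gstm2 and Gstz1 turned to -0.64, -0.26 and -0.30. The genotype-by-oxygen term at P56 was called for no gene, and 0 members had an unadjusted p under 0.05, against 328 of the 13345 genes.

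The genotype difference was set against age in a term added after the values had been seen, the KO minus WT difference at P56 in air less that at E19. It was positive and past the threshold for 4 members, where 7.89% of all genes were called, 4.22% as positive: Gstp1 at 0.74 ± 0.20 (SE; limma, adjusted p = 0.0232), Gstt1 at 1.66 ± 0.34 (SE; limma, adjusted p = 0.00543), Gstt2 at 1.75 ± 0.37 (SE; limma, adjusted p = 0.00741) and Gstz1 at 1.77 ± 0.49 (SE; limma, adjusted p = 0.0273). Gsta3 stood at 2.02 ± 0.91 (SE; limma, adjusted p = 0.169). With the Ahsg and Apoa1 level as a covariate no member passed, with values of 0.59 (adjusted p = 0.183) for Gstp1, 1.47 (adjusted p = 0.0649) for Gstt1, 1.64 (adjusted p = 0.066) for Gstt2 and 1.46 (adjusted p = 0.185) for Gstz1. A fit of the 4 groups alone left the log2 values as they were and called no member, with adjusted p of 0.0589 for Gstt1, 0.0667 for Gstt2, 0.12 for Gstz1 and 0.141 for Gstp1.

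Ranked by group mean, the 4 P56 groups stood highest for Gsta3, Gsta4, Gstm1, Gstm2, Gstp1 and Gstt1, and lowest for Gstm5. For Gstt2, Gstz1 and Gsto1 the P56 groups were mixed with younger groups in the order. The highest mean signal was that of KO P56 air lungs for Gsta3 (2565 ± 288), Gsta4 (6566 ± 193), Gstm1 (8950.3 ± 2009), Gstm2 (5901 ± 789), Gstp1 (14305 ± 143), Gstt1 (3379.6 ± 161) and Gstt2 (1249 ± 151; SD, n = 3 each). The exceptions were Gstm5 and Gstz1, highest in WT E19 lungs at 2176 ± 485 and 1219 ± 610.4 (SD, n = 4), and Gsto1, highest in WT P56 hyperoxia lungs at 10148 ± 3572 (SD, n = 3), where replicate 2 was at 14217 and the mean of the other 2 arrays was 8113. Gstp1 was the one member whose 4 P56 groups were all apart from their neighbours in the order, at 14305 ± 143 in KO air, 12696 ± 228 in KO hyperoxia, 11715 ± 419 in WT hyperoxia and 10866 ± 323 in WT air lungs (SD, n = 3 each). The WT groups were barely apart, with a lowest signal of 11231.6 in hyperoxia and a highest of 11225.3 in air. Their log2 difference of 0.11 was not called. For Gstm1 every P56 group lay above, and for Gstm5 below, every E19 and P5 group. For both genes P56 groups next to each other in the order overlapped. For Gsta3 and Gstm2 every group overlapped its neighbour in the order.

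The tested genes whose pattern over the 10 group means of log2 signal was most like each member are given as a description, with no test, since groups share age and tissue. The closest 3 genes, with the Pearson r of the first over the 10 group means, were Enpp5 (0.98), Clba1 and Sc5d for Gsta3, Scrn3 (0.97), Grpel2 and Bcl11b for Gsta4, Dusp1 (0.99), Mcoln3 and Inpp5d for Gstm1, Klrk1 (0.98), Cd160 and Ifna2 for Gstm2 and Bcl7a (0.996), Eif4e2 and Smtnl2 for Gstm5. They were Arhgap4 (0.99), Dennd1c and Ptpn18 for Gstp1, Ebpl (0.99), Plb1 and Akr1c13 for Gstt1, Tfrc (0.95), Plekhj1 and Gpx1 for Gstt2, Slc25a38 (0.98), Pmvk and Ascc1 for Gstz1 and Setd6 (0.97), Fst and Gatm for Gsto1. Over the 32 arrays the first gene of each set had r between 0.65 (Klrk1) and 0.96 (Ebpl).

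Gstm1 and Gsto1 were read from probe sets whose type can also bind related transcripts, so signal from near-identical mu transcripts cannot be told from that of Gstm1. The 3 other Gstm1 probe sets gave P56 minus P5 log2 differences of 1.78, 1.56 and 0.97 in KO lungs, and of 1.89, 1.79 and 1.25 in WT lungs. The second Gsta3 probe set gave 2.47 in KO and 1.61 in WT lungs. The second Gsto1 probe set gave 1.16 in KO and 0.45 in WT lungs.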

How the data were processed

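Lung RNA from 32 mice (1 array each, separate mice per the labels) was measured on Affymetrix mouse arrays. The authors deposited linear intensity per probe set, made with MAS5 per the submitters' processing notes; the version, detection calls and scan dates are not given in the sources used here. Before log2, 26.3, the 25th percentile of the table, was added to each value. Array medians differed 1.82-fold, under the limit of 2 set for further scaling, and total signal lay between 31172700 and 35272200 per array. A probe set was kept where 3 or more arrays exceeded the table's median of 100.4, which left 27089 of 45101, of which 23428 had 1 symbol, for 13345 genes. One fit of all arrays in limma 3.58.1 (R 4.3.3; a mean per group, 22 residual degrees of freedom, trended variance) gave 16 comparisons and 2 added after values were seen, two-sided, with p-values adjusted by Benjamini-Hochberg across the 13345 genes and called under 0.05. The code was tested on simulated data. The rule for names was all 10 members, up to 4 called genes of each other list by lowest adjusted p, and the 3 genes most like each member; members and lists were chosen with earlier results of these data known. Same-numbered arrays were checked for pairing: 10 of 40 correlations of deviations were over 0.1 (range -0.41 to 0.28), so the main comparisons are unpaired. No 2 arrays were identical (highest correlation 0.992). The number of arrays limits the precision.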

Additional observations from a re-analysis of the deposited data

Results flagged for a closer look

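Gsto1 had a signal of 7198 on WT E19 replicate 1, far above the other 3 WT E19 arrays (4287, 4061 and 3782); the gap to the nearest of them was 0.852 of the group's range, over the limit of 0.829 for 4 arrays. KO E19 replicate 1 was the highest of its group as well, at 9685. The log2 3′/5′ ratio was -0.03 on the WT array and 4.27 on the KO array. WT E19 replicate 1 was also the WT E19 array with low Ahsg, at 141 against 8589.6 to 20769.8 on the others. The cause of the high Gsto1 signals was not tested. Of 20 gene and group combinations checked this was the only one over its limit, and chance gives about 1 in 20.

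The KO minus WT difference at P56 in air differed from that at E19, by the test of the difference itself, for Gstp1 (0.74 on the log2 scale; limma, adjusted p = 0.0232), Gstt1 (1.66; 0.00543), Gstt2 (1.75; 0.00741) and Gstz1 (1.77; 0.0273). With the Ahsg and Apoa1 level as a covariate these values were 0.59, 1.47, 1.64 and 1.46 for the same genes, and none passed.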

How the results depend on the processing

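The counts given here are of members called out of 10. A count with no share of all genes beside it is not set against those genes. The 3′/5′ covariate, the removal of the 2 arrays of high ratio, and the genotype-by-maturation and genotype-by-age terms were chosen after seeing the data. KO against WT at E19 gave 0 with the compared groups alone (0.3% of all genes called) and 1 with the Ahsg and Apoa1 covariate (0.892%). With quantile normalization it gave 5 (15.7%), where Gstp1 was added. KO against WT at P56 in air gave 4 with the compared groups alone, where 9.04% of all genes were called. P5 against E19 in KO lungs gave 0 with no filter, no offset, an offset of 100, quantile normalization, median centring, the compared groups alone, no variance trend, and the liver or a Y-linked covariate. P5 against E19 in WT lungs gave 2 with quantile normalization, where 16.9% of all genes were called. It also gave 2 with the 3′/5′ covariate and 3 without the 2 arrays of high 3′/5′ ratio. It gave 0 with the replicate block, the liver covariate or 3 P5 arrays left out (KO air 1, WT air 3 and KO hyperoxia 1). P56 against P5 in WT lungs gave 3 with the liver covariate, where 11.9% of all genes were called. The genotype-by-age term gave 0 with the compared groups alone and with the liver covariate. The genotype-by-maturation term gave 1 with the compared groups alone, where 3.48% of genes were called, and 1 without the 2 arrays of high ratio. Hyperoxia against air in KO lungs at P5 gave 1 with quantile normalization (0.337% of all genes called), the 3′/5′ covariate, or those 2 arrays left out. KO against WT at P56 after hyperoxia gave 1 with the 3′/5′ covariate.

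Array weights raised most counts, given here with the share of all genes called in the same fit. KO against WT rose to 1 at P5 in air (10.8%) and 1 at P5 after hyperoxia (13.3%). At P56 it rose to 3 in air (20.1%) and 4 after hyperoxia (35.5%). Hyperoxia against air rose to 4 in KO (20.2%) and 3 in WT lungs at P5 (24.2%), and to 1 in KO lungs at P56 (3.47%). The genotype-by-oxygen term at P5 rose to 1 (5.35%) and P5 against E19 in WT lungs to 5 (35.5%). The genotype-by-birth term rose to 1 (3.15%) and the genotype-by-maturation term to 4 (19.4%). Under these weights the KO minus WT difference at P56 after hyperoxia turned to -0.35 for Gstm2 (0.27 unweighted) and to -0.37 for Gstz1 (0.25 unweighted). The cause was not tested.

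Leaving out 1 array at a time gave 3 to 6 calls for KO against WT at E19, 0 to 1 for P5 against E19 in KO and 0 to 2 in WT lungs (2 without WT E19 replicate 1, 0 without WT E19 replicate 4 or any WT P5 air array), 9 to 10 for P56 against P5 in KO and 3 to 6 in WT lungs, 0 to 1 for the genotype-by-birth term (1 without WT E19 replicate 1) and 2 to 5 for the genotype-by-age term (2 without WT E19 replicate 4, KO P56 air replicate 1 or WT P56 air replicate 3). With the replicate block, which is not backed by the labels or by the check of pairing, E19 gave 5 calls, P56 against P5 gave 9 in KO and 6 in WT lungs, and the genotype-by-age term gave 4. Over all alternatives, those above included, single called values kept the call 508 times and lost it 86 times, and none turned. Median centring moved the median of all genes at E19 from -0.05 to 0.23, and 7 of 10 members were then negative, with Gsta4 turned. Signal saturation and cross-hybridisation between related genes cannot be read from these values.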
